A study of Mus musculus with 24 samples.

Results

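Transcript levels in mouse hearts taken at ZT11, near the end of the light phase, were compared with those in hearts taken at ZT23, near the end of the dark phase. ZT, or zeitgeber time, is the number of hours since the lights came on, with 12 h of light followed by 12 h of darkness. The 8 hearts, 4 per time point, are part of 24 hearts taken at 6 time points, and every heart came from a male mouse of 8 weeks that was homozygous for the Clock delta 19 mutation. This mutation is carried in all cells and was present at both time points, so that neither group is a control for it, and wild-type hearts were not analysed here. Myocardium was snap frozen, and biotin-labelled cRNA made from 500 ng of total RNA was hybridised to Affymetrix arrays of a single colour, 1 array per heart. The members of the comparison are the 22180 genes measured under exactly 1 gene symbol, each with 1 value per heart, and all 24 hearts entered the fit. The labels call the 4 hearts of a time point biological replicates.

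The mammalian clock is a feedback loop. CLOCK and BMAL1, the product of Arntl, pair on DNA and activate the Period and Cryptochrome genes, whose proteins return to the nucleus and repress that pair. REV-ERB and ROR receptors add a second loop by repressing or activating Arntl, and the D-box factors DBP, TEF, HLF and NFIL3 carry the rhythm to other genes. The mutant CLOCK protein can still bind BMAL1 but lacks part of the region that activates transcription. Daily signals that reach the heart from outside, such as corticosterone, which peaks in mice around the onset of darkness, body temperature, feeding and sympathetic tone, can also set transcript levels at a given hour.

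Values are on a log scale that was read as log2 and are centred, as deposited, on each feature's median over the 24 arrays, so that 0 is a typical heart for that gene. None of the sources used here gives the log base. If it were e, each size below would be 1.44 times larger, and no p-value would change. Centred values hold no level, so that genes cannot be set against each other, the labelled tissue cannot be checked against its markers, and signal over background is unknown. Errors of a difference are the standard error of the fit, errors of a mean are the SD over 4 hearts, and a range after a difference is its 95% confidence interval. The number of arrays limits the precision. In bulk tissue, fewer cells of a type and less RNA per cell cannot be told apart.

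No gene passed the test between ZT11 and ZT23. With limma and Benjamini-Hochberg adjustment at 0.05 over all genes, 0 of 22180 genes (0%) were called, and the smallest adjusted p was 0.101, shared by 6 genes. An unadjusted p under 0.05 was found for 1628 genes (7.34%), where 5% would be 1109 genes. Of these, 802 (3.62%) were higher and 826 (3.72%) lower at ZT11. The 4 hearts of one time point lay wholly above the 4 of the other for 736 genes (3.32%), with ZT11 above for 359 (1.62%) and below for 377 (1.7%). Differences were small. The median over genes was 0.00044, the median size was 0.040, and 99% of genes had a size below 0.27. Only 7 genes reached a fold change of 1.5, or 43 if the values are natural logs. The 95% confidence interval of a difference extended 0.12 to each side for the median gene. On simulated data for this comparison the test called 37% of the genes given a change of 0.2 and 81% of those given 0.4. Those data were independent normal values with 200 of the 22180 genes changed and no outlying hearts, so that recovery in real hearts may differ. The values below therefore describe which genes came nearest to a difference and how the hearts were spread, and none of them is a called change.

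Some hearts stood apart and bear on each count. The array of ZT11 replicate 1 had the lowest weight of all 24 in limma's array weights, 0.54, and for 16.2% of genes it was the highest or the lowest of all 24 hearts. Next among the 8 hearts was ZT23 replicate 4, with a weight of 0.65 and 12.4% of genes, while the other 6 hearts lay between 6.39% and 9.17%. Leaving out 1 heart at a time gave 0 to 4 called genes. Without ZT11 replicate 1 the 4 genes were Klf15, Slc44a2, Fam160b2 (adjusted p = 0.015 each) and Brcc3 (adjusted p = 0.040). Without ZT11 replicate 4 they were Adh1, Krtap10-10, Hnrnpm and Usp15 (adjusted p = 0.044 each). Without ZT11 replicate 2 Pcare was called (adjusted p = 0.035), and without ZT03 replicate 4, which only changes the shared spread, Mtdh was called (adjusted p = 0.027). Fam160b2, Adh1 and Pcare are named here because of these calls and fall outside the rule for named genes. With both ZT11 replicate 1 and ZT23 replicate 4 left out, 0 genes were called.

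Among the clock genes, Arntl and Clock, 2 of the 4 measured genes of the activating arm, were lower at ZT11, and Per1 was higher. Arntl, whose product BMAL1 is the partner of CLOCK, lay at -0.38, -0.35, -0.42 and -0.21 in the 4 ZT11 hearts and at 0.30, 0.25, 0.26 and 0.074 in the 4 ZT23 hearts. Every ZT11 heart lay below every ZT23 heart, with a difference of -0.56 ± 0.15 (-0.87 to -0.25, adjusted p with limma 0.271). Clock itself, which still makes a transcript in these mice, was at -0.30, -0.19, -0.24 and -0.18 at ZT11 and at -0.0041, 0.11, 0.13 and 0.11 at ZT23. These groups did not overlap either, and the difference was -0.31 ± 0.093 (-0.51 to -0.12). The part of the Clock transcript that its array feature covers is not known, so the value says nothing about the skipped exon. Npas2, a relative of Clock that can take its place beside BMAL1, was scattered at ZT23 from -0.21 to 0.25 and differed by -0.013 (-0.20 to 0.17). Arntl2, a close relative of Arntl, differed by 0.088 (-0.076 to 0.25), with overlapping hearts. The signs of Npas2, and below of Rora, Rorb and Fbxl21, turned with 1 heart left out and carry no direction.

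Of the repressors, Per1 gave the largest size among the 24 named genes of smallest p. Its 4 ZT11 hearts were at 0.48, 0.61, 0.39 and 0.76, and its ZT23 hearts were at -0.21, -0.014, -0.58 and -0.29. The groups were separate, with 0.83 ± 0.18 between them (0.46 to 1.20, adjusted p = 0.134). Cry1, which codes for a strong repressor of the loop, ran the other way. It lay at -0.38, -0.081, -0.019 and -0.11 at ZT11 against 0.12, 0.25, 0.085 and 0.11 at ZT23, again without overlap, and differed by -0.29 ± 0.12 (-0.53 to -0.049). Its relative Cry2 overlapped between the groups and differed by 0.15 ± 0.099. For Per3 the interval ran from -0.23 to 0.30 around 0.038, so that a difference as large as that of Per1 lay outside it. Timeless, Csnk1e, Ciart and Fbxl21 differed by 0.081, 0.076, -0.024 and 0.022, and their hearts overlapped. Per2 and Csnk1d were not analysed here.

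Both REV-ERB genes had higher means at ZT11, with separate hearts for Nr1d2 alone, and Rora and Rorb differed little. Nr1d2, which codes for REV-ERB beta, was at -0.15, 0.12, -0.13 and 0.23 at ZT11 and at -0.64, -0.18, -0.19 and -0.21 at ZT23. The lowest ZT23 heart, replicate 1, stood far below the other 3, and the groups just missed each other, with 0.33 ± 0.14 between them (0.027 to 0.62). Nr1d1, which codes for REV-ERB alpha, differed by 0.17 ± 0.13 (-0.10 to 0.45), with overlapping hearts. Rora and Rorb, which code for activators of Arntl, differed by 0.0075 and 0.0097, within intervals of -0.11 to 0.12 and -0.15 to 0.17. Among the output regulators, Nfil3, whose product represses D-box genes, was at -0.024, -0.12, -0.049 and 0.012 at ZT11 and at 0.28, 0.53, 0.16 and 0.11 at ZT23. Its groups did not overlap and differed by -0.32 ± 0.080 (-0.48 to -0.15, adjusted p = 0.251). Dbp, whose product activates the same elements, differed by 0.18 ± 0.12 (-0.059 to 0.42) with overlap, and Tef and Hlf by 0.062 and 0.089. Bhlhe40 and Bhlhe41, which code for repressors at E-boxes, differed by -0.12 and 0.089, and only the hearts of Bhlhe41 were separate. In all, 6 of the 22 measured clock genes had an unadjusted p under 0.05, beside 7.34% of all genes. Among the 22, hearts were separate for these 6 and for Bhlhe41, beside 3.32% of all genes. The p-values and the separation come from the same hearts, so that the separation of the 6 adds no support. Of the 6, Per1 and Nr1d2 were higher, and Arntl, Clock, Cry1 and Nfil3 were lower at ZT11.

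**Figure D1:**
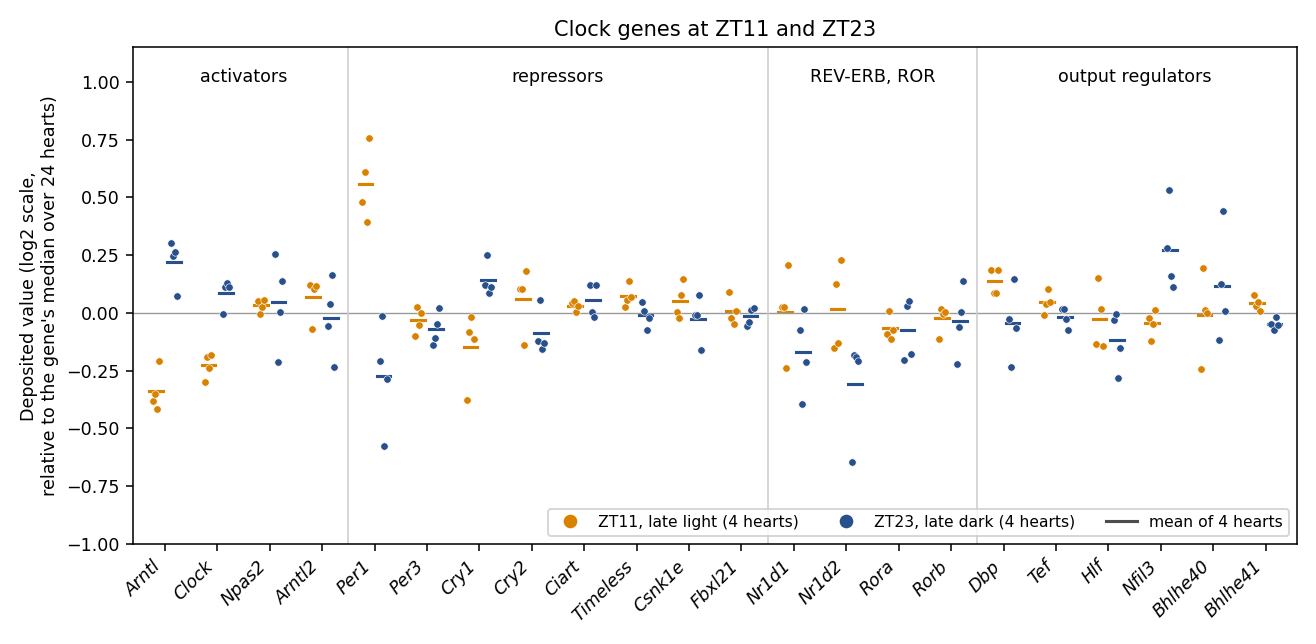
Deposited values (log2 scale, relative to each gene's median over 24 hearts) of the 22 measured clock genes in the 4 ZT11 hearts (orange) and the 4 ZT23 hearts (blue), with the mean of each group as a bar. The ZT11 points of Arntl, Clock and Cry1 lie below all ZT23 points, and those of Per1 lie above them, while Npas2, Per3, Rora and Rorb overlap.

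CLOCK and BMAL1 bind the E-box, here the letters CACGTG, which read the same on both strands. RefSeq promoters of GRCm38.p6 from 250 bases before to 50 after the start were searched on both strands, and 21 of the 22 clock genes matched one by symbol. The letters were in 5 of these 21 (Per1, Cry1, Ciart, Tef and Bhlhe41), against 9.19% of the 16990 measured genes with a promoter. They were also in 3 of 8 promoters among the 12 named genes of smallest p higher at ZT11 (Klf15, Per1 and Mapk12) and in 2 of 10 among the 12 lower (Hif1a and Hnrnpm). Among lists described below, 5 of 20 promoters for glucocorticoid response, 4 of 16 for hypoxia and 4 of 26 for chaperones held them. For the folding list of the endoplasmic reticulum it was 2 of 21. The 23.8% of the clock genes was thus not particular to them, with 25% for glucocorticoid response and for hypoxia. The stretches around the E-boxes of Per1, Cry1, Klf15 and Hif1a, with the E-box in capitals, show that genes of opposite direction carry the same letters:
Per1 E-box, chr11:69098759-69098812 (+ strand): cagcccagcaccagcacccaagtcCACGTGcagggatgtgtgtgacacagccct
Cry1 E-box, chr10:85185085-85185138 (- strand): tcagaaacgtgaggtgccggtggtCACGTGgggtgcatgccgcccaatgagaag
Klf15 E-box farther from the start, chr6:90462326-90462377 (+ strand): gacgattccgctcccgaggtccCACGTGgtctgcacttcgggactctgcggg
Klf15 E-box nearer to the start, chr6:90462380-90462433 (+ strand): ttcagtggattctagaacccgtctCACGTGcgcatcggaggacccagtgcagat
Hif1a E-box, chr12:73907708-73907761 (+ strand): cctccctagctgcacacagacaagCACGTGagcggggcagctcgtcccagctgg
Those of Per1 and Cry1 begin 166 and 60 bases before the start, those of Klf15 at 228 and 172 bases, and that of Hif1a at 135 bases. A match of letters is a description and not a bound site.

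Genes known to respond to glucocorticoids were mostly higher at ZT11. Their list, like the others, was chosen with earlier results of these data known. Corticosterone binds the glucocorticoid receptor, which then activates genes of energy supply, protein breakdown and immune restraint. Of 24 genes in the list, all measured, 23 had a positive difference, and the median was 0.17, beside 50.4% positive and a median of 0.00044 over all genes. None passed over all genes. An unadjusted p under 0.05 was found for 10 higher and 0 lower, beside 3.62% and 3.72% of all genes, and 7 had ZT11 hearts wholly above the ZT23 hearts, beside 1.62%. The median over the 24 genes was 0.058, 0.14, 0.17 and 0.19 in the ZT11 hearts and -0.013, 0.0091, -0.048 and -0.17 in the ZT23 hearts, which did not overlap. With both ZT11 replicate 1 and ZT23 replicate 4 left out, 22 were positive, 7 had an unadjusted p under 0.05 and the median was 0.16. In the other pairs of time points 12 h apart, the median of the list was 0.079 for ZT03 minus ZT15 and 0.030 for ZT07 minus ZT19. The difference between the pairs was not tested for the list.

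Klf15 had the smallest p of the list, and Per1, also a member, the largest difference. Klf15 codes for a zinc finger factor that controls amino acid and lipid use in heart and is a direct target of the glucocorticoid receptor. Its hearts were at 0.036, 0.16, 0.21 and 0.40 at ZT11 and at -0.13, -0.18, -0.20 and -0.26 at ZT23. All ZT11 hearts lay above all ZT23 hearts, and the difference was 0.39 ± 0.068 (0.25 to 0.53, adjusted p with limma 0.101). The lowest ZT11 heart was replicate 1, and without it the difference was 0.45 and passed, as given above. Over the 6 time points the mean of Klf15 was highest at ZT11, 0.20 ± 0.15, and lowest at ZT23, -0.19 ± 0.052. Sult1a1, which codes for a sulfotransferase, was at 0.25, 0.32, 0.38 and 0.15 against -0.039, -0.090, -0.43 and -0.053. These hearts were separate too, with 0.43 ± 0.097 (0.23 to 0.63).

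Other members, chosen after their values were seen, followed. Nfkbia, which codes for an inhibitor of NF-kappa B, lay at 0.39, 0.13, 0.43 and 0.26 at ZT11 and at 0.014, 0.021, -0.058 and -0.062 at ZT23. Sgk1, a kinase gene induced by the hormone, lay at 0.44, 0.18, 0.15 and 0.38 and at 0.087, 0.0076, -0.13 and -0.15. Fbxo32, which codes for the muscle ubiquitin ligase atrogin-1, lay at 0.13, 0.16, 0.19 and 0.56 and at 0.036, 0.039, -0.037 and -0.22. In each of these 3 genes the groups were separate, and the differences were 0.32 ± 0.10, 0.33 ± 0.11 and 0.31 ± 0.10. Klf9, Ddit4, Tsc22d3 and Cebpb had overlapping hearts and differed by 0.32 ± 0.10, 0.29 ± 0.14, 0.21 ± 0.090 and 0.17 ± 0.081. Tsc22d3 codes for GILZ, a protein through which the hormone restrains inflammation, and Ddit4 for an inhibitor of mTOR. Several strong targets of the receptor had no settled sign, since it turned with 1 heart left out. Fkbp5 differed by -0.0074 (-0.14 to 0.13) and Mt1 by 0.022 (-0.15 to 0.20), while Dusp1 and Zbtb16 were too scattered to place, with intervals of -0.44 to 0.45 and -0.51 to 0.54. Mt1, Dusp1 and Zbtb16 are counted among the 23 positive members all the same, and Fkbp5 is the 1 negative. Pdk4, which switches muscle from glucose to fat, differed by 0.18 ± 0.18, where ZT11 replicate 4 alone was high at 0.53.

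The receptor binds a palindrome, searched here on both strands as GNACA and TGTNC with 3 bases between them. It was in the promoters of 3 of the 20 members with one (Sgk1, Mt1 and Trim63), against 0.536% of all measured genes with a promoter. Sgk1 and Trim63, the gene of the muscle ubiquitin ligase MuRF1, differed by 0.33 ± 0.11 and 0.15 ± 0.10. The interval of Trim63 included 0. Mt1 ranged from -0.041 to 0.055 with single hearts left out, so that its sign was not settled. The stretches of Sgk1 and Trim63 are shown with the palindrome in capitals, and that of Mt1 is not shown:
Sgk1 palindrome, chr10:21993678-21993738 (+ strand): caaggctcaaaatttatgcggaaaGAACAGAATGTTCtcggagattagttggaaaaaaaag
Trim63 palindrome, chr4:134314888-134314948 (+ strand): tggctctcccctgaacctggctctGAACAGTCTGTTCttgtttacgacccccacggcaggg
They begin 188 and 208 bases before the start. Klf15 and Per1 did not hold these letters within this window.

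The 12 named genes of smallest p with a higher mean at ZT11 differed by 0.19 to 0.83, with adjusted p between 0.101 and 0.141, and for 11 of them the hearts were separate. They were chosen on these values, so that their order and separation describe them and support nothing. Mtdh, which codes for metadherin, a membrane-associated protein of the endoplasmic reticulum and cell junctions, had the smallest p. Its ZT11 hearts were at 0.037, 0.039, -0.23 and 0.044 and its ZT23 hearts at -0.64, -0.43, -0.45 and -0.72. All ZT11 hearts but replicate 3 were near the gene's median over the series, and the ZT23 hearts were far below it. The means at ZT03, ZT07, ZT15 and ZT19 were 0.087, -0.010, -0.065 and -0.058, so that the difference of 0.53 ± 0.091 (0.35 to 0.72) came from low values at ZT23.

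S1pr1, which codes for the sphingosine 1-phosphate receptor of endothelial cells, had its extreme at ZT11. It was at 0.17, 0.52, 0.27 and 0.36 at ZT11 and at 0.084, -0.26, -0.31 and -0.28 at ZT23. The highest ZT23 heart, replicate 1, stood apart from the other 3 and still lay below every ZT11 heart, and the difference was 0.52 ± 0.10 (0.31 to 0.73). Its mean was 0.33 ± 0.15 at ZT11 and no higher than 0.072 at any other time point. Adgrg1, an adhesion receptor gene, was at 0.0053, 0.51, 0.21 and 0.34 against -0.31, -0.17, 0.00052 and -0.42, which left the lowest ZT11 heart just above the highest ZT23 heart. Slc44a2, which codes for a choline transporter-like protein, was the gene with overlap, since ZT11 replicate 1 was at -0.11 and the ZT23 hearts lay between -0.30 and -0.096.

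A pair of kinase genes of the p38 pathway was among the 12. Mapkapk5, whose product is activated by p38-type kinases, lay at 0.12, 0.24, 0.17 and 0.26 at ZT11 and at -0.12, -0.12, -0.024 and -0.000094 at ZT23. Mapk12, which codes for p38 gamma, a form abundant in striated muscle, lay at 0.26, 0.076, 0.18 and 0.22 and at -0.12, -0.035, -0.052 and -0.077. Both differed by similar amounts, 0.27 ± 0.050 and 0.25 ± 0.055. Antxr1, which codes for a receptor that binds collagen, differed by 0.27 ± 0.057, and Slc24a3, which codes for a sodium, calcium and potassium exchanger, by 0.19 ± 0.041. Msantd1 and Krtap10-10, the latter named for a family of hair keratin-associated proteins, differed by 0.31 ± 0.067 and 0.19 ± 0.034. For 10 of the 12 genes ZT11 had the highest mean of the 6 time points, and for 10 ZT23 had the lowest.

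**Figure D2:**
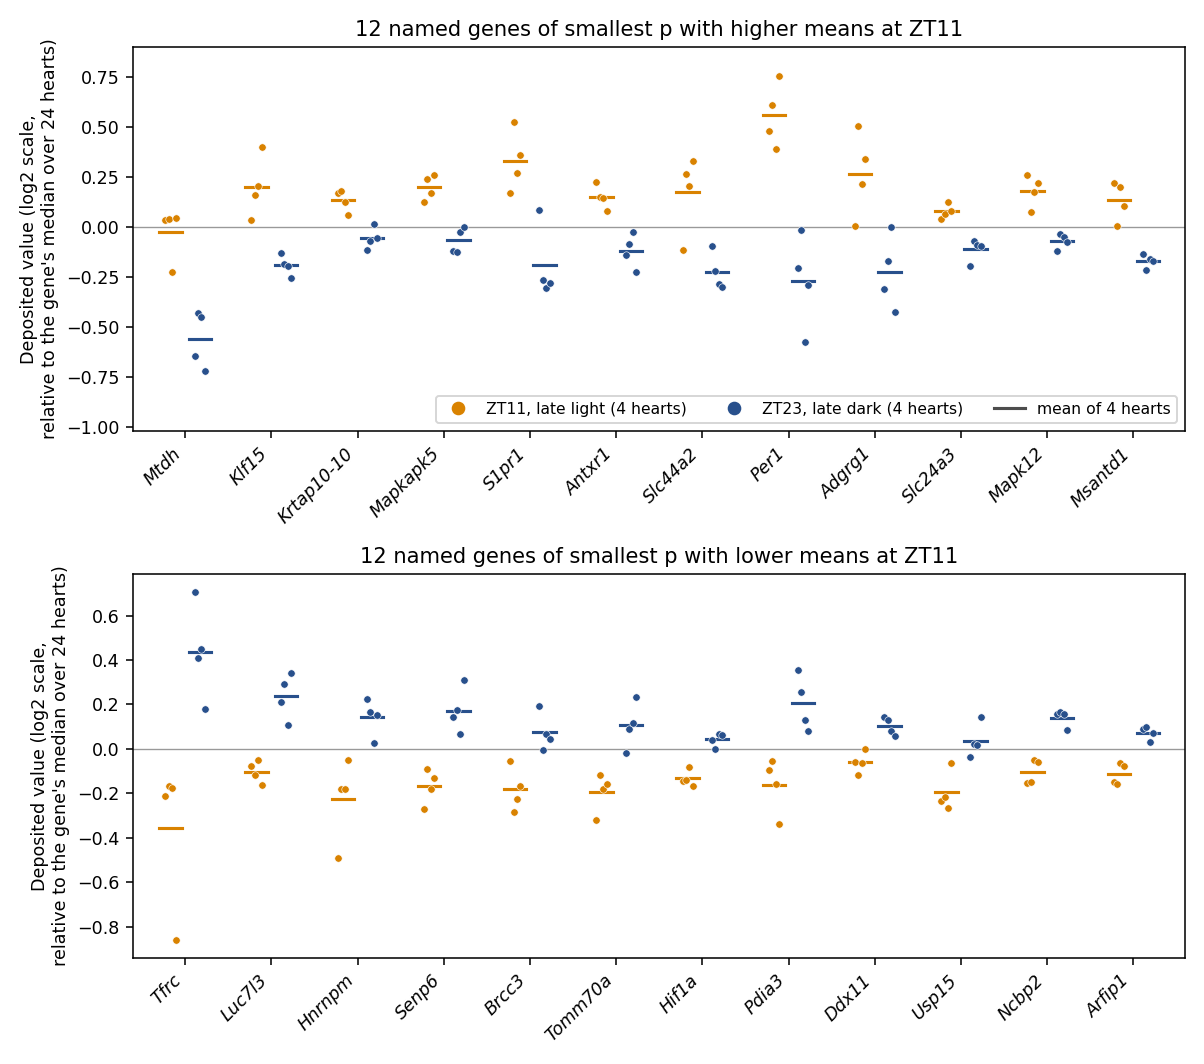
Deposited values (log2 scale, relative to each gene's median over 24 hearts) of the 12 named genes of smallest p with higher means at ZT11 (upper panel) and the 12 with lower means (lower panel). Points are single hearts of ZT11 (orange) and ZT23 (blue), and bars are group means. The groups are separate for all genes drawn except Slc44a2, and none passed adjusted p 0.05.

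The 12 named genes of smallest p with a lower mean at ZT11 differed by -0.16 to -0.79, with adjusted p between 0.101 and 0.134 and separate hearts for all 12. ZT11 had the lowest mean of the 6 time points in each, and ZT23 the highest in 8. Tfrc, which codes for the transferrin receptor that takes iron into cells, had the largest size. It lay at -0.21, -0.17, -0.17 and -0.86 in the ZT11 hearts and at 0.71, 0.41, 0.45 and 0.18 in the ZT23 hearts. ZT11 replicate 4 was far below the other 3, and the difference was -0.79 ± 0.14 (-1.09 to -0.49, adjusted p with limma 0.101). Over the series its mean was 0.16 at ZT03, -0.0053 at ZT07 and -0.35 at ZT11, against -0.15, 0.010 and 0.44 at ZT15, ZT19 and ZT23. Tfrc was the only member of the iron list with an unadjusted p under 0.05. The median over its 14 measured members was -0.00028, with 7 positive.

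Tfrc transcripts are stabilised when iron is short and are also induced by hypoxia-inducible factor 1. The gene of that factor's oxygen-regulated subunit, Hif1a, was in the same group of 12. The protein was not measured, and a link between the 2 genes in these hearts was not tested. Hif1a lay at -0.14, -0.14, -0.081 and -0.17 at ZT11 and at 0.040, 0.0013, 0.066 and 0.062 at ZT23, a separation of tightly clustered groups with a difference of -0.18 ± 0.036 (-0.25 to -0.10). Its value averages 2 features that differed in size, -0.24 and -0.11. In the hypoxia list of 18 measured genes, 4 were lower and 3 higher with an unadjusted p under 0.05, beside 3.72% and 3.62% of all genes, and the median was -0.061, or -0.032 without ZT11 replicate 1. Hearts were separate for 3 members lower and 2 higher at ZT11, beside 1.7% and 1.62% of all genes, so that the list had no common direction. Egln3, which codes for a prolyl hydroxylase that marks the factor for destruction and is itself induced by it, was at -0.48, -0.29, -0.54 and -0.23 against 0.043, 0.39, 0.39 and 0.52. Its hearts were separate and differed by -0.72 ± 0.17 (-1.08 to -0.37). Vegfa, the gene of the main angiogenic growth factor, was at -0.29, 0.066, -0.054 and 0.020 against 0.29, 0.29, 0.43 and 0.10, also separate. P4ha1, a collagen prolyl hydroxylase gene, differed by -0.32 ± 0.090 with overlap, since ZT23 replicate 4 was at -0.046. Slc2a1, Pfkfb3 and Ndrg1, counted as targets of the same factor, were higher at ZT11 by 0.12 ± 0.047, 0.17 ± 0.070 and 0.10 ± 0.040, and Ldha differed by 0.030 (-0.074 to 0.13). The core of the hypoxia response element, ACGTG, was in 12 of 16 promoters of the list, against 23.8% of all measured genes with one. Other lists also lay above that share, with 11 of 21 promoters for clock genes and 9 of 20 for glucocorticoid response. For chaperones it was 8 of 26, and for folding in the endoplasmic reticulum 8 of 21. ACGTG is part of the E-box letters, and 4 of the 12 promoters of the hypoxia list (Hif1a, Bnip3, Ldha and Pfkfb3) also hold an E-box. That of Egln3 begins 229 bases before the start and is not an E-box:
Egln3 ACGTG, chr12:54204075-54204124 (- strand): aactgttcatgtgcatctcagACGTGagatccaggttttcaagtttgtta

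Genes of RNA handling were also among the 12. Luc7l3, which codes for a protein of U1 splicing complexes, was at -0.078, -0.12, -0.052 and -0.16 at ZT11 and at 0.21, 0.29, 0.11 and 0.34 at ZT23. Hnrnpm, which codes for a splicing repressor that binds nascent RNA, was at -0.49, -0.18, -0.18 and -0.050 and at 0.22, 0.16, 0.028 and 0.15. Ncbp2, a subunit gene of the nuclear cap-binding complex, was at -0.15, -0.15, -0.048 and -0.059 and at 0.16, 0.16, 0.16 and 0.085. All 3 had separate groups and differed by -0.34 ± 0.063, -0.37 ± 0.071 and -0.24 ± 0.052. In the splicing list of 21 measured genes, 16 were lower, 3 of them with an unadjusted p under 0.05 (Luc7l3, Rbm25 and Srsf11) and 0 higher, beside 3.72% and 3.62% of all genes, and the median was -0.070. That median rests on ZT11 replicate 1, where the list median was -0.22 against -0.020 to 0.015 in the other ZT11 hearts, and without it the median was -0.018.

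The remaining genes of the group have varied roles. Senp6, which codes for a protease that removes SUMO chains, lay at -0.27, -0.091, -0.18 and -0.13 at ZT11 and at 0.14, 0.17, 0.066 and 0.31 at ZT23, with -0.34 ± 0.067 between separate groups. Brcc3 and Usp15, which code for enzymes that remove ubiquitin, differed by -0.26 ± 0.050 and -0.23 ± 0.048. Tomm70a, which codes for an import receptor of the outer mitochondrial membrane, differed by -0.30 ± 0.059, and Ddx11, a DNA helicase gene, by -0.16 ± 0.034. Arfip1, a Golgi protein gene, differed by -0.18 ± 0.039, an average over 3 features at -0.18, -0.035 and -0.33 that thus disagreed in size.

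**Figure D3:**
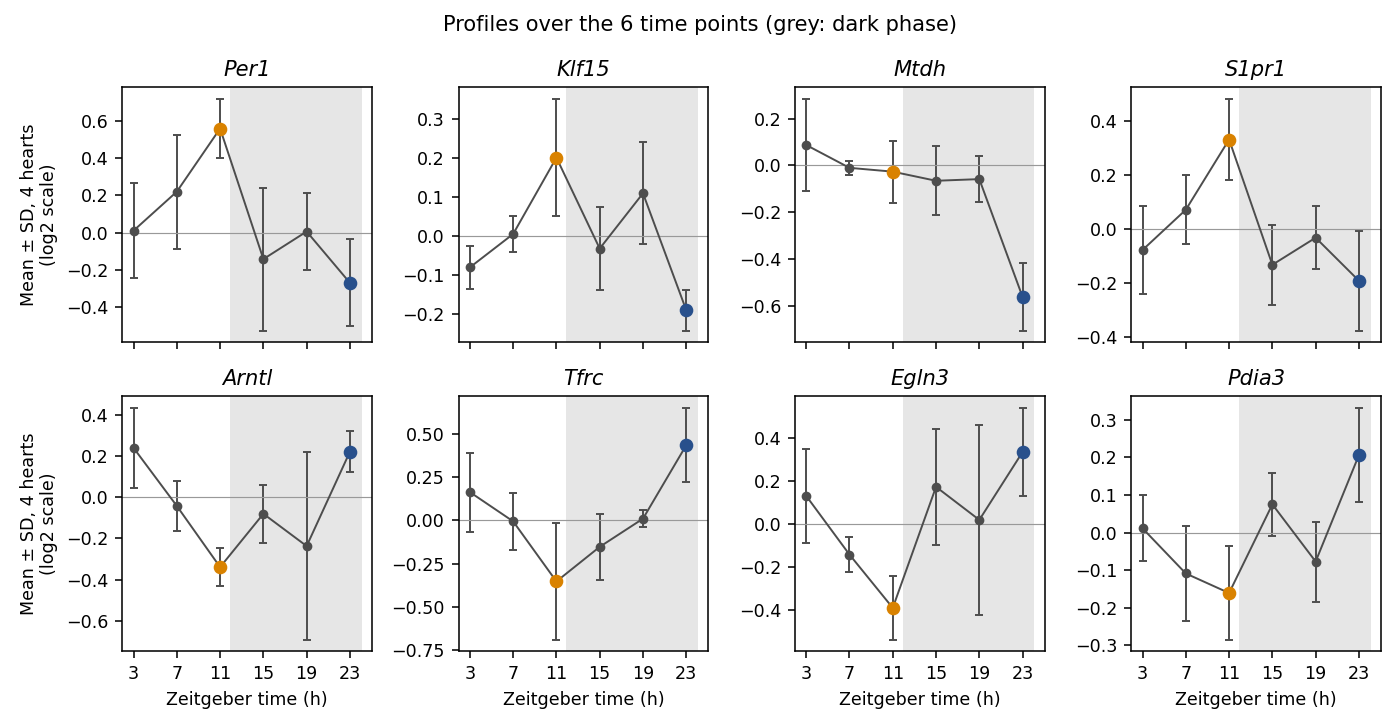
Mean ± SD over 4 hearts (log2 scale) of 8 genes at the 6 time points, with the dark phase in grey, ZT11 in orange and ZT23 in blue. Per1, Klf15 and S1pr1 peak at ZT11, Mtdh is low at ZT23 alone, and Arntl, Tfrc, Egln3 and Pdia3 have their lowest mean at ZT11.

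Most chaperone genes had lower means at ZT11 than at ZT23. Cytosolic chaperones are induced by heat shock factor 1 when proteins unfold and follow body temperature, which in mice is higher in the dark. The part of temperature in the values below was not tested. Of 31 measured genes, 23 had a negative difference, and the median was -0.084. With an unadjusted p under 0.05, 9 were lower and 2 higher, beside 3.72% and 3.62% of all genes, and for 7 the ZT11 hearts lay wholly below, beside 1.7%. None passed over all genes. The list median was -0.11, -0.079, -0.063 and -0.015 in the ZT11 hearts and 0.014, 0.052, 0.040 and 0.020 in the ZT23 hearts, without overlap. The count of 9 became 6 without ZT23 replicate 2 and 5 with both low-weight hearts left out, where the median was -0.11. The median of this list was also negative between ZT03 and ZT15, -0.062, and between ZT07 and ZT19, -0.058.

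Several of the members with an unadjusted p under 0.05, chosen after their values were seen, code for partners of HSP70 and HSP90. Chordc1, an HSP90 partner gene, lay at -0.41, -0.16, -0.41 and -0.19 at ZT11 and at 0.035, 0.42, 0.051 and 0.22 at ZT23. Hspa4, which codes for a nucleotide exchange factor of HSP70, lay at -0.11, -0.086, -0.069 and 0.023 and at 0.18, 0.082, 0.12 and 0.11. Stip1, which codes for the adaptor that hands clients from HSP70 to HSP90, lay at -0.26, -0.21, -0.063 and -0.12 and at -0.031, 0.31, 0.17 and 0.063. The groups were separate in all 3, with differences of -0.47 ± 0.13, -0.19 ± 0.044 and -0.29 ± 0.088. Fkbp4, Hspa4l, Hspd1 and Hsp90aa1 were also separate, at -0.21 ± 0.053, -0.27 ± 0.096, -0.16 ± 0.058 and -0.20 ± 0.077. Hspa1a and Hspa1b, the stress-induced HSP70 genes, which are near-identical copies that an array feature may not tell apart, differed by -0.25 ± 0.19 and -0.25 ± 0.21, and Dnajb1 by -0.15 ± 0.11. Their hearts overlapped. Cryab and Bag3, whose products stabilise the sarcomere, went the other way, by 0.16 ± 0.056 and 0.18 ± 0.086.

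The heat shock element, searched on both strands as GAA, TTC and GAA with 2 bases between each, was in 4 of 26 promoters of the list (Hsph1, Hspd1, Hspe1 and Chordc1), against 0.63% of all measured genes with one. Hspd1 and Hspe1, which code for the mitochondrial chaperonin and its cap, are divergent neighbours and share a stretch with overlapping matches, of which one is shown in capitals on the strand of Hspd1:
Hspd1 and Hspe1 heat shock element, chr1:55088035-55088095 (- strand): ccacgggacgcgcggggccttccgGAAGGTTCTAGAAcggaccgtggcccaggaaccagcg
Hspd1 differed by -0.16 ± 0.058 and Hspe1 by 0.096 ± 0.068, with intervals of -0.28 to -0.040 and -0.045 to 0.24, so that genes at both ends of the same promoter lay on opposite sides of 0.

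In the endoplasmic reticulum, which folds secreted and membrane proteins, the direction was the same. Of 24 measured genes of the folding and stress list, 18 were lower at ZT11, 6 with an unadjusted p under 0.05 and 0 higher with one, beside 3.72% and 3.62% of all genes, and the median was -0.12. It was -0.073 without ZT23 replicate 1, and 4 genes in place of 6 had an unadjusted p under 0.05 without ZT11 replicate 1. The list medians overlapped between the groups, since ZT11 replicate 2 was at 0.043, among the ZT23 hearts. Pdia3, which codes for a disulfide isomerase that folds glycoproteins, led the list with -0.096, -0.053, -0.16 and -0.34 at ZT11 and 0.36, 0.26, 0.13 and 0.080 at ZT23. These groups were separate and differed by -0.37 ± 0.075 (-0.52 to -0.21, adjusted p = 0.134). Its partner gene Canx, for the lectin chaperone calnexin, was at -0.18, -0.034, -0.019 and -0.048 against 0.13, 0.081, 0.061 and 0.093, also separate. Hsp90b1, the gene of GRP94, differed by -0.26 ± 0.056 with ZT11 replicate 2 among the ZT23 hearts, and Hspa5, the gene of BiP, by -0.25 ± 0.11. Among sensors and transcription factors of the stress response, Xbp1 differed by 0.030, with a sign that turned with 1 heart left out, Ern1 by 0.071, Atf4 by -0.099 and Ddit3 by -0.086, all with overlapping hearts.

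Most genes of mitochondrial energy supply had small positive differences, and their counts and medians moved with single hearts. Of 18 measured genes of fatty acid oxidation, 16 were positive, beside 50.4% of all genes, 5 were higher with an unadjusted p under 0.05 and 0 lower, beside 3.62% and 3.72%, and the median was 0.080. The median was 0.030 without ZT11 replicate 4 and 0.039 without ZT23 replicate 4, with 3 genes of unadjusted p under 0.05 in each case. In the other pairs 12 h apart it was 0.069 for ZT03 minus ZT15 and 0.0047 for ZT07 minus ZT19. Acaa2, which codes for the thiolase that ends each round of the spiral, was at 0.087, 0.049, 0.0061 and 0.19 at ZT11 and at -0.058, -0.056, -0.12 and -0.036 at ZT23. Ech1, an isomerase gene, was at 0.062, -0.026, -0.0061 and 0.10 against -0.18, -0.063, -0.19 and -0.25. Both were separate and differed by 0.15 ± 0.043 and 0.20 ± 0.060, and so was Hadh, at 0.12 ± 0.045. Of 47 measured genes of the respiratory complexes, 39 were positive, 9 higher and 1 lower with an unadjusted p under 0.05, beside 3.62% and 3.72% of all genes, and the median was 0.076. The 9 became 2 without ZT11 replicate 2, 4 without ZT23 replicate 3 and 5 without ZT23 replicate 4, so that the count rests on single hearts. The list medians of the hearts overlapped, with 0.021 and 0.020 in ZT11 replicates 3 and 4 and 0.022 in ZT23 replicate 1. The median of the respiratory list was -0.0093 for ZT03 minus ZT15 and 0.017 for ZT07 minus ZT19. Sdhd and Sdhb, subunits of succinate dehydrogenase, had separate hearts and differed by 0.19 ± 0.070 and 0.15 ± 0.060. Ndufa10, of complex I, was the 1 lower, at -0.12 ± 0.052.

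Other genes of lipid and glucose use differed one by one. Gpihbp1, which codes for the endothelial protein that anchors lipoprotein lipase to the capillary wall, lay at 0.17, 0.21, 0.19 and 0.27 at ZT11 and at -0.062, -0.084, -0.29 and -0.20 at ZT23. Pnpla2, the gene of adipose triglyceride lipase, lay at 0.22, 0.18, 0.23 and 0.25 and at 0.065, 0.024, 0.015 and -0.10. Abhd5, which codes for the activator of that lipase, lay at -0.19, -0.18, -0.089 and -0.16 and at 0.057, -0.031, 0.034 and -0.068. The lipase gene was thus higher and its activator gene lower at ZT11, by 0.22 ± 0.083 and -0.15 ± 0.058, each with separate hearts, and Gpihbp1 differed by 0.37 ± 0.10. Pdk2, which restrains pyruvate oxidation, differed by 0.30 ± 0.099 with overlap. Ldhb, the heart form of lactate dehydrogenase, was separate at 0.23 ± 0.069, and Pfkp and Pfkfb2 of the phosphofructokinase step differed by -0.27 ± 0.10 and -0.25 ± 0.10 with overlap. The medians of the lists of lipolysis, of fasting targets and of glucose use were 0.024, 0.058 and 0.0045, and 0 members of each passed over all genes. Their signs rest on single hearts, since they were -0.011, -0.00035 and -0.0016 without ZT11 replicate 4 and 0.071, 0.085 and 0.037 without ZT11 replicate 1. Without ZT23 replicate 4 they were -0.015, 0.020 and -0.0076, and without ZT23 replicate 1 they were 0.052, 0.14 and 0.026. For ZT03 minus ZT15 the medians of these lists were 0.054, 0.11 and 0.024, and for ZT07 minus ZT19 -0.014, -0.025 and 0.0043.

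Among antioxidant genes, glutathione transferases and a quinone reductase were higher at ZT11. Gstm2 was at 0.49, 0.15, 0.11 and 0.18 at ZT11 and at -0.28, -0.089, -0.33 and -0.025 at ZT23. Gstm1 was at 0.34, 0.26, 0.23 and 0.14 and at -0.046, 0.096, 0.0088 and -0.10. Nqo1, the quinone reductase gene, was at -0.032, 0.15, -0.013 and 0.097 and at -0.19, -0.062, -0.47 and -0.39. All 3 were separate, with 0.41 ± 0.091, 0.25 ± 0.080 and 0.33 ± 0.11, and Gstm2 stood highest in ZT11 replicate 1. Gstm1 and Gstm2 are close paralogues whose features may share transcripts. With Sod2, at 0.10 ± 0.036, these were the 4 of 29 members with an unadjusted p under 0.05, all higher, beside 3.62% of all genes. The median of the list was 0.054, with 23 positive, and moved between 0.035 and 0.082 when ZT23 replicate 1 or ZT11 replicate 2 was left out. It was 0.045 for ZT03 minus ZT15 and 0.023 for ZT07 minus ZT19.

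Genes of contraction and rhythm showed no common direction. In the sarcomere and Z-disc list, 19 of 36 were positive and the median was 0.0050. Its extremes were a pair of stretch-related genes that ran in opposite directions. Tcap, which codes for the titin cap protein of the Z-disc, was at 0.51, 0.14, 0.52 and 0.36 at ZT11 and at -0.35, -0.076, -0.28 and 0.029 at ZT23. Abra, which codes for an actin-binding protein of striated muscle, was at -0.47, -0.29, -0.17 and -0.35 against 0.42, -0.012, 0.40 and 0.038. The groups were separate in both, with 0.55 ± 0.15 (0.25 to 0.86) and -0.53 ± 0.15 (-0.83 to -0.23). Slc8a1, the sodium and calcium exchanger that clears calcium from the cell, was at -0.14, -0.093, -0.088 and -0.20 against 0.0027, 0.054, 0.089 and 0.089. Sri, whose product sorcin modulates calcium release, was at -0.28, -0.17, -0.33 and -0.19 against 0.16, 0.015, 0.11 and -0.17. These too were separate, at -0.19 ± 0.047 and -0.27 ± 0.065, while Cacna1c and Camk2d overlapped at 0.19 ± 0.088 and 0.15 ± 0.064. Cacna1c was at 0.097 without ZT11 replicate 4 and 0.12 without ZT23 replicate 4, and Camk2d at 0.084 without ZT23 replicate 2.

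Of 18 measured potassium channel genes, 4 were higher and 3 lower with an unadjusted p under 0.05, beside 3.62% and 3.72% of all genes. The 4 became 2 without ZT11 replicate 3 or ZT23 replicate 3 and 1 without ZT11 replicate 4 or ZT23 replicate 4, and the 3 became 1 without ZT11 replicate 1. Kcne1, a subunit of the slow delayed rectifier, differed by -0.36 ± 0.12, and Kcnj2, of the inward rectifier, by -0.26 ± 0.10. Kcna5, Kcnd2, Kcnh2 and Kcnj8 differed by 0.26 ± 0.11, 0.24 ± 0.11, 0.20 ± 0.092 and 0.20 ± 0.064. The hearts overlapped in all but Kcnd2, whose ZT11 replicate 4 stood high at 0.33. In the intercalated disc, Cdh2, the gene of N-cadherin, was separate at 0.11 ± 0.048.

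The further pathway lists of over 1 gene had medians between -0.0064 and 0.060. Rpl38 stood out among 46 cytosolic ribosomal protein genes, at 0.18, 0.83, 0.57 and 0.60 against 0.18, 0.10, -0.24 and 0.026, with 0.53 ± 0.12 (0.27 to 0.79), while the median of its list was 0.032. Sesn1, a gene of the stress response that restrains mTOR, was at 0.14, 0.23, 0.051 and 0.075 against -0.077, -0.31, -0.071 and -0.41 and differed by 0.34 ± 0.093. The immediate early genes Fos, Egr1 and Atf3, which are induced within minutes by stimulation or handling, differed by -0.47 ± 0.21, -0.45 ± 0.17 and -0.34 ± 0.14. Their hearts overlapped, and ZT23 replicates 1 and 3 were the highest for each, with Fos at 1.35, -0.088, 0.34 and -0.034 in the 4 ZT23 hearts and between -0.14 and -0.00069 at ZT11. Bst2 of the interferon response, Hmgcs1 of sterol synthesis, Psmb5 of the proteasome and Ccnb2 of the cell cycle had the smallest p of their lists and differed by -0.30 ± 0.13, -0.16 ± 0.075, -0.17 ± 0.078 and -0.28 ± 0.090. Sqstm1 of autophagy, Mrpl42 of the mitochondrial ribosome, Tns2 of the clock output list, Cirbp of the cold-inducible proteins and Agtr1a, the angiotensin receptor gene, differed by 0.26 ± 0.11, 0.18 ± 0.062, 0.27 ± 0.11, 0.11 ± 0.081 and 0.23 ± 0.095.

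**Figure D4:**
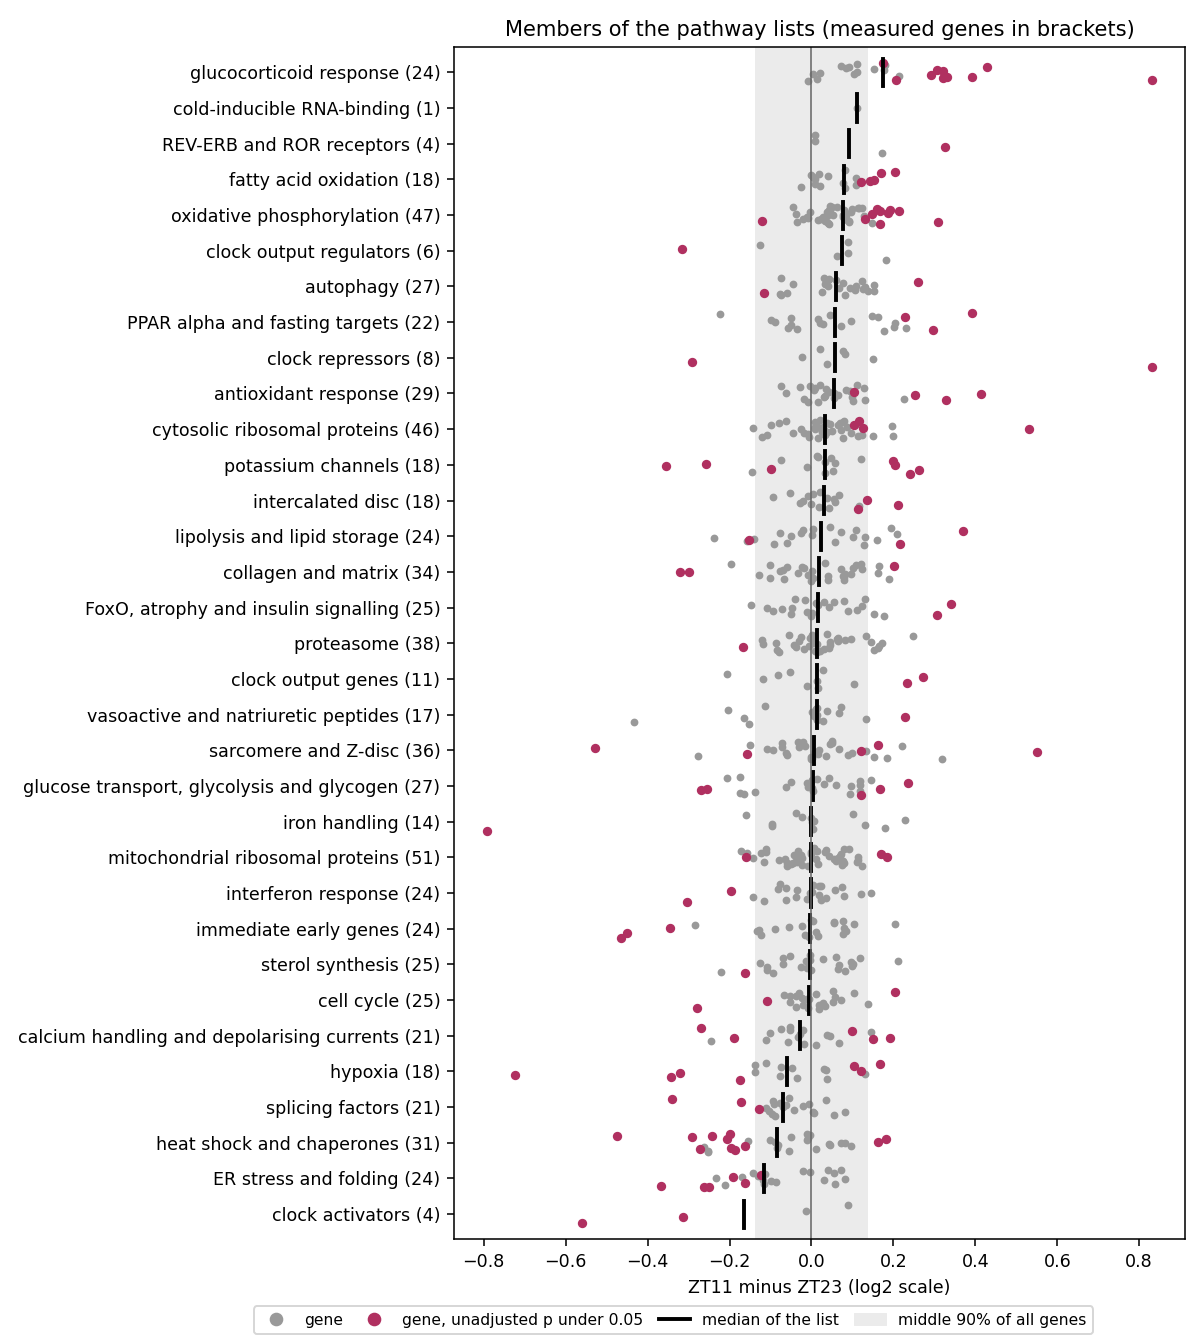
Difference ZT11 minus ZT23 (log2 scale) of each measured member of the 33 pathway lists, ordered by the list median (black bar), with members of unadjusted p under 0.05 in red and the middle 90% of all genes, -0.14 to 0.13, as the grey band. The glucocorticoid list lies furthest to the right among lists of over 4 genes, with a median of 0.17, and the folding list of the endoplasmic reticulum furthest to the left, with -0.12.

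Markers of cell types did not separate the groups as lists. The median difference was 0.00049 for 10 cardiomyocyte markers, -0.00093 for 12 fibroblast markers, -0.032 for 12 macrophage markers and 0.035 for 12 markers of smooth muscle and pericytes, and 0 markers of any type passed over all genes. Of 12 endothelial markers, 10 were lower at ZT11, with a median of -0.058. Their summed values ran from -1.33 to 0.47 in the ZT11 hearts and from -1.01 to 2.24 in the ZT23 hearts. The median rests on ZT23 replicate 1, without which it was 0.0039. The endothelial genes S1pr1 and Gpihbp1 were higher at ZT11 while these markers had no settled direction, and the part of cell numbers in their values was not tested. C1qc, a complement gene of macrophages, was at -0.15, -0.24, -0.21 and -0.10 against -0.057, 0.033, 0.058 and 0.22 with -0.24 ± 0.071, and Csf1r, the receptor gene of the same cells, differed by 0.28 ± 0.11, in the other direction. Th, the tyrosine hydroxylase gene, was at 0.021, -0.032, 0.024 and -0.12 against 0.11, 0.071, 0.16 and 0.22, with -0.17 ± 0.056. It was the lowest of 8 Schwann and neural markers and the only one with an unadjusted p under 0.05, and 5 of the 8 were positive, with a median of 0.0092.

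Whether the late difference departed from that between other time points 12 h apart was tested on the difference of differences, ZT11 minus ZT23 (the late pair) against ZT03 minus ZT15 (the early pair). No heart was shared between the pairs. With limma, 27 of 22180 genes passed (0.122%), 9 (0.0406%) with a larger value in the late pair and 18 (0.0812%) with a smaller one, and 2468 (11.1%) had an unadjusted p under 0.05. The 27 were chosen by the difference between these pairs, so that their signs and small p in each pair describe them and support nothing. All 27 had opposite signs, although the late sign of Hes5 turned with single hearts left out and under other settings. In the early pair 239 genes (1.08%) passed on their own, 195 higher (0.879%) and 44 lower (0.198%) at ZT03, against 0 in the late pair. Over all genes, the differences of the pairs had a Pearson correlation of -0.0019, given as a description. Of the 27 genes, 22 had an unadjusted p under 0.05 in the late pair, 27 had one in the early pair, beside 7.34% and 13% of all genes, and in 7 the late difference was the larger in size. ZT03 held the highest mean of the 6 time points for 14 of them, and ZT11 the lowest for 13.

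The count of 27 depended on single hearts. It was 8, 10 and 15 without ZT03 replicates 2, 3 and 1, and 55 without ZT03 replicate 4. Without ZT11 replicates 1, 3 and 4 it was 14, 12 and 132, and without ZT15 replicates 1 to 4 it was 17, 13, 11 and 11. It was 13, 12 and 12 without ZT23 replicates 2, 3 and 4. Hearts outside the contrast, which only set the shared spread, moved it as well, to 16 and 9 without ZT07 replicates 1 and 2 and to 46 and 10 without ZT19 replicates 2 and 3. Of the 27 genes, 8 passed with each single heart left out, namely Cryab, Prrx1, Tmem63b, Hif1a, Tm4sf1, Senp6, Pcdh7 and Lpl. Of these 8, Cryab, Prrx1, Hif1a and Tm4sf1 also passed under each of the 7 other settings tried.

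Prrx1, which codes for a homeobox factor of mesenchyme and was on the list of fibroblast markers, reversed its sign between the pairs. The median of that list was -0.00093 in the late pair and 0.15 in the early pair, and the part of cell numbers was not tested. The means of Prrx1 were 0.16 at ZT03, -0.11 at ZT11, -0.20 at ZT15 and 0.16 at ZT23. The late difference was -0.26 ± 0.062, the early one 0.36 ± 0.062, and they differed by -0.62 ± 0.087 (adjusted p with limma 0.00633). In single hearts Prrx1 was at -0.11, -0.10, -0.15 and -0.064 at ZT11 and at 0.18, 0.13, 0.16 and 0.16 at ZT23, without overlap. Hif1a followed the same course, with means of 0.088 at ZT03, -0.13 at ZT11, -0.073 at ZT15 and 0.043 at ZT23. Its pairs differed by -0.34 ± 0.050 (adjusted p = 0.00816), the first feature by far more than the second in the early pair, 0.28 against 0.040. Senp6 differed by -0.58 ± 0.094 (adjusted p = 0.0158), and Tfrc by -1.11 ± 0.20 (adjusted p = 0.038), the largest size of the 27, although Tfrc was lost without each of 10 hearts.

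Cryab, the gene of the small chaperone alpha B-crystallin, ran the other way, and most of its reversal lay in the early pair. Its late difference was 0.16 ± 0.056, with overlapping hearts, and its early difference was -0.46 ± 0.056, which gave 0.62 ± 0.080 (adjusted p = 0.00313). Lpl, the gene of lipoprotein lipase, had 0.13 ± 0.063 in the late pair and -0.41 ± 0.063 in the early pair (adjusted p of the difference 0.0158). The 2 features of each differed in size in the early pair, -0.23 and -0.69 for Cryab and -0.13 and -0.70 for Lpl. Tmem63b, which codes for a stretch-gated channel, was at 0.15, 0.12, 0.19 and 0.12 at ZT11 and at -0.030, 0.048, -0.016 and -0.025 at ZT23, without overlap, and its pairs differed by 0.44 ± 0.064 (adjusted p = 0.00816). Krtap10-10, Rela, Ndrg2, Smg9, Xirp1 and Hes5 were the others with a larger value in the late pair. For Xirp1, Hes5, Pcdh7, Ap5m1 and Lpl the late difference alone had no unadjusted p under 0.05.

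Among the other genes with a smaller value in the late pair were Traf6, an adaptor of innate immune signalling, Idh1, the cytosolic isocitrate dehydrogenase gene, Ngly1, which removes sugar chains from misfolded proteins, and Mtrex and Papolg, which act in RNA decay and polyadenylation. The 2 features of Papolg disagreed in size, at -0.079 and -0.27 in the late pair and 0.029 and 0.41 in the early pair. Papolg was also lost without each of 19 hearts. Idh1 lay at -0.51, -0.18, -0.35 and -0.13 at ZT11 and at 0.10, 0.029, -0.060 and -0.014 at ZT23, without overlap, and its pairs differed by -0.67 ± 0.12 (adjusted p = 0.036). Mtrex and Traf6 differed between the pairs by -0.40 ± 0.079 and -0.40 ± 0.074, and their late hearts were separate too. Rhobtb3, Tm4sf1, Gsap, Ap5m1, Tmem242, Mtrf1l, Dipk1a and Mamld1 completed the 18, with differences between the pairs from -0.67 to -0.36.

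**Figure D5:**
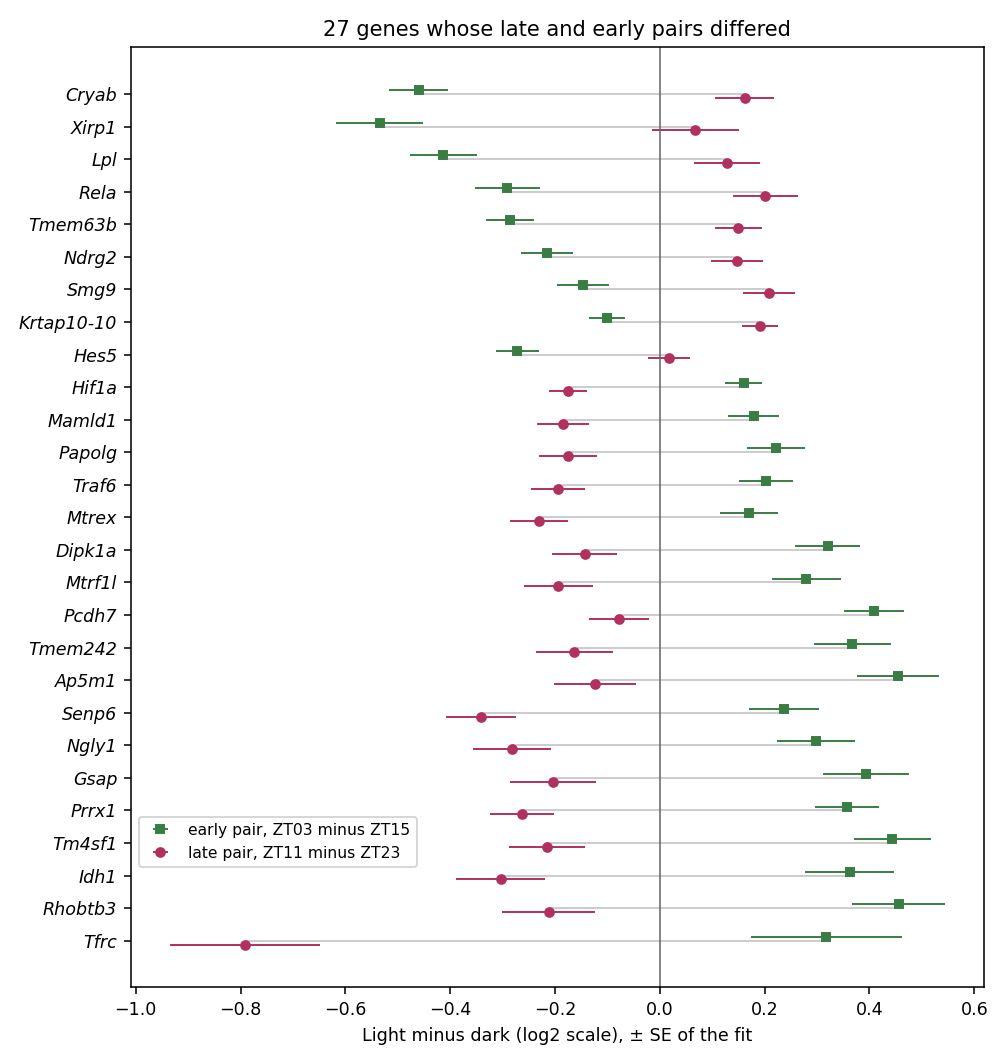
Difference ZT11 minus ZT23 (red circles) and ZT03 minus ZT15 (green squares) on the log2 scale, with the SE of the fit, for the 27 genes that passed the test of the difference between the pairs. Each gene lies on opposite sides of 0 in the pairs, Hes5 close to 0 in the late pair with a sign that turned under other settings, and for 20 of the 27 the early difference is the larger in size.

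Against the middle pair, ZT07 minus ZT19, limma called 0 genes, and 1411 (6.36%) reached an unadjusted p below 0.05. The middle pair on its own also had 0 calls, with 1238 genes (5.58%) at that level. The smallest adjusted p, 0.0755, was shared by Slc24a3 and Slc19a2. Slc24a3 differed by 0.19 in the late pair and by -0.16 in the middle pair, and Slc19a2, the gene of a thiamine transporter, by 0.19 and -0.25. Without ZT07 replicate 3 the count was 2. Cryab and Klf15 differed between these pairs by 0.45 ± 0.080 (adjusted p = 0.121) and 0.50 ± 0.096 (adjusted p = 0.231). Snord13, a small nucleolar RNA, had the largest size among the 10 genes named for this contrast, 0.70 in the late pair and -0.70 in the middle pair, with an adjusted p of 0.28.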

How the data were processed

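Per the labels' protocols, RNA from 24 hearts was hybridised to single-colour Affymetrix arrays. As deposited, each of the 34351 features has a median of 0 over the arrays, so that the authors' values are centred, and their scale was read as log2. How background was corrected and arrays were normalized was not stated in the labels or file headers. No further normalization was applied, and no filter on low signal could be set on centred values.

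Features with exactly 1 gene symbol (23521) were averaged per gene to 22180 genes, of which 1082 average 2423 features. Features with several symbols (1814) or none (9016) were left out. Symbols came from the platform annotation, and 23328 features matched RefSeq GRCm38.p6 by Entrez ID. A model with a mean per time point was fitted over 24 hearts with limma 3.58.1 (R 4.3.3), lmFit and eBayes, with 18 residual degrees of freedom. Every adjusted p is limma's, with Benjamini-Hochberg adjustment over all genes at 0.05. The procedure was tested on simulated data.

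Named genes are the 12 of smallest p in each direction, all measured clock genes, the member of smallest p of each other list, and the 5 of smallest p in each direction between pairs. Other genes were chosen after their values were seen. The members and gene lists were chosen with earlier results of these data known. The main fit did not pair hearts by replicate number, and the correlations of same-numbered hearts are given below. The alternatives were array weights, robust moderation, quantile normalization, a replicate block, the feature of largest SD, the hearts of the contrast alone, each heart left out in turn and, added after seeing the data, both hearts of lowest weight among the 8 of ZT11 and ZT23 left out.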

Additional observations from a re-analysis of the deposited data

Results flagged for a closer look

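A single heart lay far from the other 3 of its time point in 20 of 342 groups of 4 hearts examined, by Dixon's criterion, which chance alone meets in about 1 in 20 groups. In ZT11 replicate 1 the value was -0.11 for Rorb against -0.0042 to 0.016 in the others, 0.49 for Gstm2 against 0.11 to 0.18 in the others and -0.25 for Hspa4l against -0.15 in the others. In ZT11 replicate 2 the value was -0.069 for Arntl2 against 0.11 to 0.12 in the others and 0.38 for Bnip3 against 0.20 to 0.22 in the others. In ZT11 replicate 3 the value was -0.23 for Mtdh against 0.037 to 0.044 in the others, 0.12 for Cirbp against -0.0073 to 0.00030 in the others and 0.18 for Ern1 against -0.028 to -0.012 in the others. In ZT11 replicate 4 the value was -0.86 for Tfrc against -0.21 to -0.17 in the others, 0.56 for Fbxo32 against 0.13 to 0.19 in the others and 0.33 for Kcnd2 against -0.11 to -0.061 in the others. In ZT23 replicate 1 the value was 0.084 for S1pr1 against -0.31 to -0.26 in the others, -0.0041 for Clock against 0.11 to 0.13 in the others and -0.64 for Nr1d2 against -0.21 to -0.18 in the others. In ZT23 replicate 2 the value was 0.023 for Hmgcs1 against -0.020 to -0.019 in the others. In ZT23 replicate 3 the value was -0.12 for Cryab against 0.014 to 0.033 in the others, 0.066 for Mamld1 against -0.0015 to 0.0042 in the others, -0.43 for Sult1a1 against -0.090 to -0.039 in the others and -0.16 for Dnajb1 against 0.15 in the others. In ZT23 replicate 4 the value was 0.085 for Ncbp2 against 0.16 in the others.

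The late and the early pair differed, by limma's test of the difference itself, in 27 genes. Positive differences of late minus early were found for Krtap10-10 (0.29), Cryab (0.62), Tmem63b (0.44), Lpl (0.54), Rela (0.49), Hes5 (0.29), Ndrg2 (0.36), Smg9 (0.35) and Xirp1 (0.60). Negative ones were found for Tfrc (-1.11), Senp6 (-0.58), Hif1a (-0.34), Prrx1 (-0.62), Tm4sf1 (-0.66), Pcdh7 (-0.49), Ap5m1 (-0.58), Dipk1a (-0.46), Gsap (-0.60), Idh1 (-0.67), Mamld1 (-0.36), Mtrex (-0.40), Mtrf1l (-0.47), Ngly1 (-0.58), Papolg (-0.40), Rhobtb3 (-0.67), Tmem242 (-0.53) and Traf6 (-0.40).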

How the results depend on the processing

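The count of 0 genes between ZT11 and ZT23 was also 0 under the 7 settings other than leaving out single hearts, and 0 to 4 with each heart left out. No named gene with a difference that excluded 0 by its interval turned its sign. Those that did were small or scattered. With array weights Npas2, Rora, Hes5 and Fkbp5 were at 0.010, -0.011, -0.0055 and 0.0098. With ZT11 replicate 1 and ZT23 replicate 4, the hearts of lowest weight among the 8, both left out, Npas2, Rora, Hes5, Fkbp5 and Dusp1 were at 0.012, -0.019, -0.033, 0.037 and -0.088. Hes5 was at -0.041 by the feature of largest SD, and Rora at -0.0061 after quantile normalization. With single hearts left out the ranges were -0.099 to 0.057 for Npas2, -0.0058 to 0.040 for Fbxl21, -0.036 to 0.050 for Rora, -0.052 to 0.068 for Rorb, -0.0094 to 0.046 for Hes5, -0.041 to 0.018 for Fkbp5, -0.041 to 0.055 for Mt1, -0.14 to 0.22 for Zbtb16, -0.22 to 0.21 for Dusp1 and -0.054 to 0.074 for Xbp1. The list medians that moved by more than the SD between hearts were antioxidant response (0.030 with array weights, 0.033 after quantile normalization), cell cycle (0.017 with weights, 0.014 without both hearts), oxidative phosphorylation (0.045 without both hearts) and the markers of neutrophils (-0.0090 with weights), adipocytes (-0.014 without both hearts) and Schwann and neural cells (-0.010 without both hearts). With single hearts left out, the medians that moved so ranged from -0.20 to -0.14 for clock activators, from -0.12 to -0.057 for heat shock and chaperones, from 0.030 to 0.086 for fatty acid oxidation, from -0.030 to 0.017 for mitochondrial ribosomal proteins, from 0.035 to 0.082 for antioxidant response, from -0.023 to 0.0085 for cell cycle, from -0.0099 to 0.014 for neutrophil markers, from 0.0040 to 0.044 for adipocyte markers and from -0.012 to 0.012 for Schwann and neural markers. Medians that crossed 0 while moving by less than that SD included fasting targets (-0.00035 to 0.14), lipolysis (-0.015 to 0.071), glucose use (-0.0076 to 0.040), potassium channels (-0.013 to 0.058) and macrophage markers (-0.079 to 0.025). The 27 genes that differed between the late and early pair became 9 without both of these hearts, 14 with only the hearts of the contrast, and 8 to 132 with single hearts left out. Between the late and middle pair the count was 0 to 2 with single hearts left out. Apart from the loss of samples and of shared spread that these settings bring, the cause was not tested.

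Replicate numbers are shared between time points in the labels. Same-numbered ZT11 and ZT23 hearts had correlations of their deviations from -0.17 to 0.064, with a median of -0.027, against -0.0080 for hearts of unlike number. With 4 such pairs, these values cannot show whether the numbers mark a shared litter, day or batch, which was not tested. With the replicate block 0 genes passed between ZT11 and ZT23, 13 between the late and early pair and 1 between the late and middle pair. With 4 hearts per group, an exact permutation test of 1 gene cannot go below 0.0286. Signal over background is unknown for centred values.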
